A study of Mus musculus with 24 samples.

Results

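The Iroquois homeobox family of the mouse has 6 genes, Irx1 to Irx6, and all 6 had a row in the count table of 15736 genes. The genes were chosen by name, matched to the table by their Ensembl identifiers, and lie in a pair of clusters. The IrxA cluster (Irx1, Irx2 and Irx4) spans 1.312 Mb of chromosome 13, and the IrxB cluster (Irx3, Irx5 and Irx6) spans 0.882 Mb of chromosome 8, both in the mouse assembly GRCm38 (mm10). The RNA sequenced came from the epithelium of the otocyst, the vesicle that gives rise to the inner ear. The study asked how expression changes when the embryo makes s(dn)FGFR2b, a secreted, dominant-negative version of FGFR2b that binds FGF ligands outside the cell. Control embryos (con) were Rosa26rtTA/+ and experimental embryos (R2b) were Rosa26rtTA/+;Tg(tetO-s(dn)Fgfr2b)/+, so both genotypes carried the doxycycline-dependent activator rtTA. Doxycycline was given to all pregnant females, first injected into the abdomen (1.5 mg/kg) and then in the chow (200 mg/kg). Exposure began on embryonic day E9.75 and ran for 12 h (E9.75+12h), or began on E9.25 or E10.25 and ran for 24 h (E9.25+24h, E10.25+24h). The first and second exposures ended at E10.25, the last at E11.25. The otocysts of each litter were pooled by genotype, so a library is 1 pool of embryos and each female gave 1 con and 1 R2b library. Rosa26 is active in nearly all cells, so induction was not limited to the otocyst. The 12 h exposure had 3 litters and each 24 h exposure had 4, which gave 22 libraries in all.

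Iroquois genes encode homeodomain transcription factors of the TALE class, in which an extra loop lies between helices of the homeodomain. The vertebrate clusters arose by duplication, so each IrxA gene has a positional counterpart in IrxB: Irx1 pairs with Irx3, Irx2 with Irx5, and Irx4 with Irx6. The family is known for dividing fields of cells into regions, in the neural tube, heart, limb and sense organs. FGF signalling is known to act through Irx2 in the part of the hindbrain that forms the cerebellum.

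In the genome, Irx1 (ENSMUSG00000060969) lies at chr13:71957921-71963723 on the minus strand. Irx2 (ENSMUSG00000001504) lies at chr13:72628820-72634198 and Irx4 (ENSMUSG00000021604) at chr13:73260479-73269608, both on the plus strand. In the other cluster, Irx3 (ENSMUSG00000031734) lies at chr8:91798525-91802067 on the minus strand, Irx5 (ENSMUSG00000031737) at chr8:92357625-92376286 on the plus strand and Irx6 (ENSMUSG00000031738) at chr8:92674288-92680956 on the plus strand. An antisense gene, Irx3os, overlaps Irx3 by 1653 bases and has its own row. Whether the counting used strand is not given in the sources used here, so reads of Irx3 and Irx3os cannot be told apart.

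The 6 genes are most alike in the homeobox, the stretch that encodes the DNA-binding homeodomain. The 60 bases below, in the GENCODE M21 transcripts, cover the recognition helix, which contacts DNA. They are shown because a read from this stretch may fit more than 1 member. Capitals mark the bases that differ from Irx3.

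Irx3: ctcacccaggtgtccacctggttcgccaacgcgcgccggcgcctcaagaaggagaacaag
Irx1: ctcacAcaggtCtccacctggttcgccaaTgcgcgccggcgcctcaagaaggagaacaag
Irx5: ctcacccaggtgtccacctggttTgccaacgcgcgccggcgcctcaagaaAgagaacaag
Irx2: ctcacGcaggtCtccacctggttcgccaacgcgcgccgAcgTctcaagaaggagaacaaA
Irx6: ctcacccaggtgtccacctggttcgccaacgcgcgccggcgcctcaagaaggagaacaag
Irx4: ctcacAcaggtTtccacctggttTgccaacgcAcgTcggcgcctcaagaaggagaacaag

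In this stretch Irx6 had 0 differences from Irx3, Irx5 had 2, Irx1 had 3, and Irx2 and Irx4 had 5 each. Over the whole homeobox of 189 bases, the 15 pairs of members were 86.8% to 92.6% identical. The 63 encoded residues were the same at 63 positions between Irx2 and Irx5, at 62 between Irx1 and Irx3, and at 60 between Irx4 and Irx6. The longest identical run between transcripts was 88 bases, shared by Irx3 and Irx6. The read length is not given in the sources used here, so how reads within such runs were assigned is uncertain.

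RefSeq promoter windows on GRCm38.p6, from 250 bases before to 50 bases after the annotated start, had entries for Irx2, Irx3 and Irx4. The windows of Irx3 and Irx2 are shown because these genes from different clusters rose together in the first exposure below. Capitals mark AGGAAG, a core bound by PEA3-type ETS factors, the class of Etv4 and Etv5, which are induced by FGF signalling. In the Irx2 window the capitals show it on the opposite strand, as CTTCCT.

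Irx3 (chr8:91801605-91801904, minus strand): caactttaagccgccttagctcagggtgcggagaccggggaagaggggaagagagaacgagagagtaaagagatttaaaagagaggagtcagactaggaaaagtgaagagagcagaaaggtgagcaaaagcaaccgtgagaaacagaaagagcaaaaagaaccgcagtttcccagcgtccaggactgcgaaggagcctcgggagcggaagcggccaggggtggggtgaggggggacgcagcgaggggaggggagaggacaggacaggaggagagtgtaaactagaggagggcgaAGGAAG
Irx2 (chr13:72628570-72628869, plus strand): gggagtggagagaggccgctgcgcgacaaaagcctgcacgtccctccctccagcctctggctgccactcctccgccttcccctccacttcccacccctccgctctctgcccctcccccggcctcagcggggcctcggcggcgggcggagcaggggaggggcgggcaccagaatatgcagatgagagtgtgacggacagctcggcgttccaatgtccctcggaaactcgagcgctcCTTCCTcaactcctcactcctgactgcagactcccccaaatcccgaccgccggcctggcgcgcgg

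On either strand, AGGAAG was found in 35.4% of all 32851 promoter windows of this length, so a match is common and describes the letters only. The Irx4 window, not shown, held no AGGAAG on either strand. The Irx3 match lies 44 bases after the RefSeq start, and the whole Irx3 window lies inside the GENCODE span of the gene given above. CCAAT, present in the Irx2 window, was found in 37.4% of windows. The Iroquois motif ACANNTGT (7.38% of windows) and TATAAA (13.6%) were not among the letters of the 3 windows. CpG dinucleotides numbered 14 in the Irx3 window, 25 in the Irx2 window and 31 in the Irx4 window, against a median of 7 over all windows.

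Library totals were 18.7 to 28.2 M counts. Levels are given as CPM (counts per M counts of the library), scaled within an exposure by trimmed mean of M-values (TMM). All 12 otic epithelium markers on the list were detected in every library, and only 4 of 13 hindbrain markers had a row, with summed levels of 3.29 to 22.5 CPM. Fgfr2, whose reads include those of the transgene, had 146 to 159 CPM in the con and 729 to 1552 CPM in the R2b pools of the 12 h exposure. In those of E9.25+24h the ranges were 127 to 154 and 1325 to 1917 CPM. Ighg1, an immunoglobulin constant-region gene, separated the genotypes further: at most 1.90 CPM in every con library and at least 1001 CPM in every R2b library of these exposures. At E10.25+24h, libraries went against their labels. Litters 1 to 4 had 703, 1.45, 206 and 0.758 CPM of Ighg1 under the con label, and 56.3, 1186, 845 and 859 CPM under the R2b label. Fgfr2 had 909, 236, 413 and 214 CPM under the con label, and 323, 1271, 902 and 1006 CPM under the R2b label. Litter 1 is reversed relative to its labels in both genes, and the con library of litter 3 holds many Ighg1 reads. Groups were kept as labelled. Fold changes and differences of effects of that exposure are also given without litter 1, and fold changes without litters 1 and 3.

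Compared per kilobase of exon, Irx3 was the most abundant Iroquois transcript in all 6 groups. In the con libraries of E9.75+12h it was at 79.1 ± 3.68 CPM per kb (SD, n = 3). Irx1 followed at 36.2 ± 5.72, Irx5 at 21.9 ± 2.54, Irx2 at 14.0 ± 1.46, Irx6 at 1.92 ± 0.237 and Irx4 at 0.127 ± 0.0255 CPM per kb. In this group the ranges of neighbours in the order did not overlap. At E9.25+24h the order of the con means was the same, but the ranges of Irx5 (13.5 to 18.4 CPM per kb) and Irx2 (12.0 to 21.2 CPM per kb) overlapped. At E10.25+24h Irx5 (29.0 ± 8.5 CPM per kb, SD, n = 4) and Irx1 (26.8 ± 5.24 CPM per kb, n = 4) were not separated in the libraries labelled con. In the titles, the libraries of each exposure carry a library number prefix of their own, so differences in level between exposures cannot be told apart from what that prefix marks.

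After 12 h of exposure, all 5 Iroquois genes with enough counts to test were higher in R2b. The IrxB genes rose by 1.78-fold to 2.44-fold and the IrxA genes Irx1 and Irx2 by 1.67-fold and 1.49-fold. Of all 14882 genes tested at E9.75+12h, 20.0% were called in either direction (1518 of 2973 higher), at a Benjamini-Hochberg adjusted p under 0.05 in edgeR's quasi-likelihood test. The R2b libraries lay above the con libraries without overlap for all 5 genes, as they did for 19.8% of the genes tested. The members' median log2 fold change was 0.83, against 0.011 over all genes. In bulk tissue, more cells that express a gene and more RNA per cell cannot be told apart.

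Irx3, which acts with Irx5 in heart conduction and limb patterning, was at 207, 221 and 227 CPM in the con libraries of litters 1 to 3 and at 417, 358 and 392 CPM in the R2b libraries. Every R2b library exceeded every con library, by more than the range of the con libraries. This came to a log2 fold change of 0.83 (SE 0.09, edgeR adjusted p = 5.57e-04).

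Irx5, the neighbour of Irx3 and also known from retinal bipolar cells, was at 59.3, 73.3 and 73.2 CPM in con and at 156, 124 and 143 CPM in R2b. The groups did not overlap, and R2b was higher in all 3 litters, with a log2 fold change of 1.04 (SE 0.12, edgeR adjusted p = 5.6e-04).

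Irx6, the least studied member, was scarce: 6.0, 6.01 and 7.38 CPM in con, from 110 to 140 counts, and 17.5, 16.6 and 13.4 CPM in R2b, from 259 to 423 counts. It had the highest fold change of the 5 genes tested, 1.29 on the log2 scale (SE 0.17, edgeR adjusted p = 0.001). Irx6 was at 2.42% ± 0.229 of the Irx3 level in con and 3.34% ± 0.511 in R2b, both per kb (SD, n = 3).

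Irx1, the counterpart of Irx3 in IrxA, was at 77.5, 103 and 104 CPM in con and at 175, 135 and 164 CPM in R2b. Litter 1 had the lowest con value and the highest R2b value. The log2 fold change was 0.74 (SE 0.13, edgeR adjusted p = 0.00432), and without litter 1 it was 0.52 with an adjusted p of 0.0902.

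Irx2, which often shares its expression domains with Irx1, was at 40.7, 46.6 and 50.1 CPM in con and at 72.9, 67.7 and 63.9 CPM in R2b. The groups did not overlap, and the difference again was widest in litter 1. Its log2 fold change was 0.57 (SE 0.11, edgeR adjusted p = 0.00546). Without litter 1 it was 0.44 with an adjusted p of 0.15, and in 1 fit over all 22 libraries the adjusted p was 0.0959.

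Leaving out litter 1 left 3 members called, the IrxB genes, where 2.92% of all genes were called. With litters also taken as a block, Irx3 and Irx5 were called and Irx6 had an edgeR adjusted p of 0.0728, where 1.79% of all genes were called. With 3 libraries a group, the two-sided exact permutation p of each of the 5 genes was 0.1, the smallest this design can give. In these libraries the 12 otic epithelium markers summed to 4039 to 4251 CPM in con and to 4470 to 5347 CPM in R2b, without overlap (4 of 12 called higher and 1 lower). The 12 mesenchyme markers summed to 94.5 to 350 CPM in con and 197 to 383 CPM in R2b. The part of these markers in the result was not tested.

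**Figure D1:**
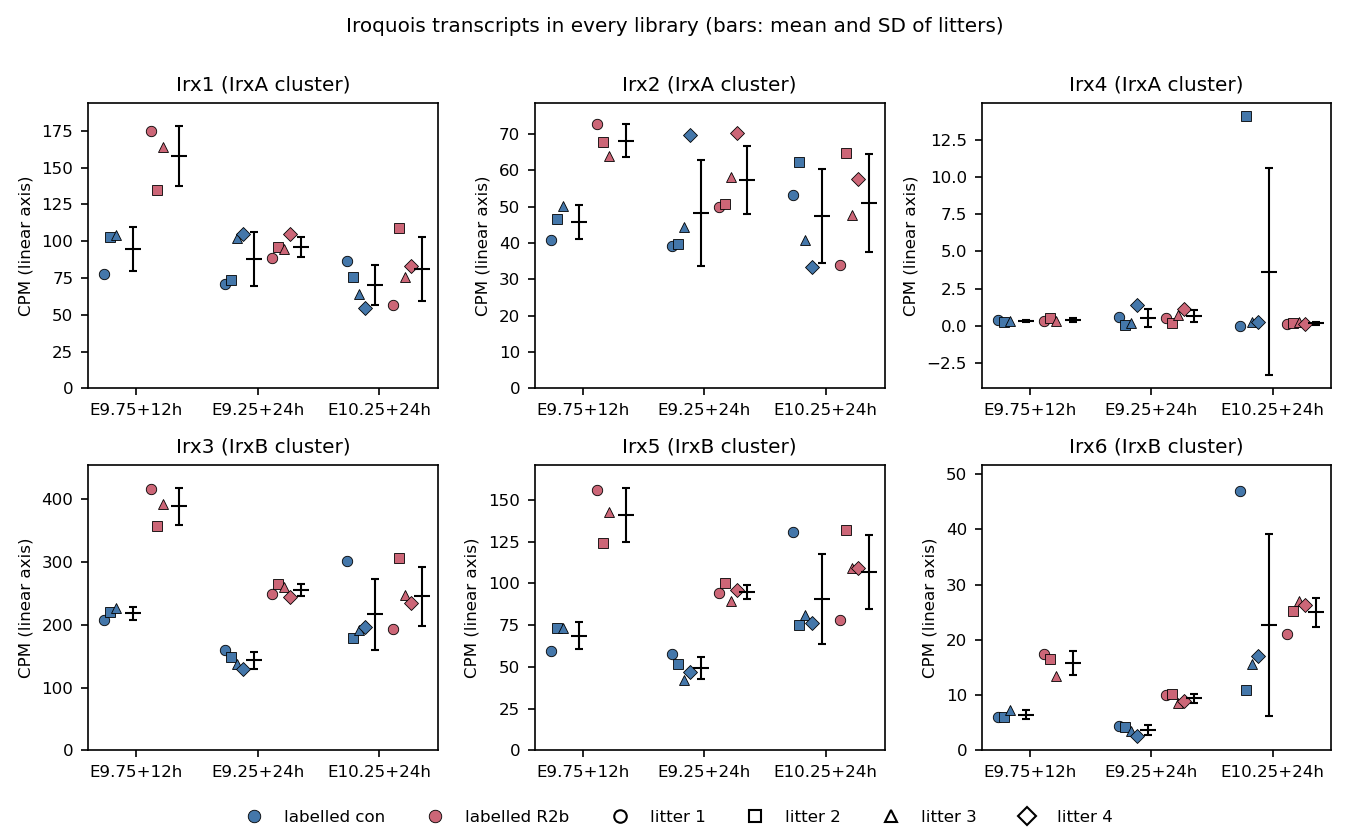
CPM (linear axis) of the 6 Iroquois genes in each of the 22 libraries, by exposure and labelled genotype, with symbols for litters and bars for the mean and SD. R2b lies above con without overlap for the IrxB genes in the exposures that ended at E10.25, for Irx1 and Irx2 in the 12 h exposure, and for none under the labels of E10.25+24h.

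After 24 h of exposure that ended at the same stage, the IrxB genes were again called. All 3 were higher in R2b, by 1.78-fold to 2.53-fold, while no IrxA gene was called in this fit, which had no block. With the litter as a block, Irx2 was called as well (below). At E9.25+24h, 3 of 6 members tested were called, all higher, where 15.6% of 14979 genes were called in either direction (1362 of 2335 higher). The R2b libraries lay above the con libraries without overlap for these 3 members and for 12.2% of genes. The members' median log2 fold change was 0.54, against -0.01 over all genes.

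Irx3 was at 159.8, 148, 137 and 129 CPM in con (litters 1 to 4) and at 249, 265, 261 and 245 CPM in R2b. Both groups were tight and far apart, with SDs of 13.4 and 9.57 CPM (n = 4 each). The log2 fold change of 0.83 (SE 0.07, edgeR adjusted p = 4.74e-04) was close to that of the 12 h exposure.

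Irx5 was at 57.6, 51.7, 42.1 and 46.8 CPM in con and at 94.3, 100, 89.6 and 96.2 CPM in R2b. R2b was higher in all 4 litters, and the log2 fold change was 0.94 (SE 0.09, edgeR adjusted p = 7.68e-04). Irx6 was at 4.45, 4.32, 3.56 and 2.58 CPM in con, from 56 to 93 counts, and had 214, 210, 191 and 187 counts in R2b (9.42 ± 0.87 CPM, SD, n = 4). Its groups did not overlap either, and its log2 fold change of 1.34 (SE 0.18, edgeR adjusted p = 0.00307) was again the highest of the members tested.

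An exact permutation test, two-sided and without pairing by litter, gave p = 0.0286 for each IrxB gene, and 4 against 4 libraries allow no smaller value. The 3 calls held in each of the 23 alternative fits of this exposure, with edgeR or DESeq2 adjusted p up to 0.014 for Irx3, 0.0223 for Irx5 and 0.037 for Irx6. Summed levels of the 12 otic epithelium markers were 3658, 3743, 2850 and 2366 CPM in con, for litters 1 to 4. In R2b they were 4468, 5183, 3585 and 3313 CPM, higher in each litter, with overlapping ranges. Of the 12 markers, 2 were called higher and 3 lower. The part of these markers in the result was not tested.

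Irx1 was at 70.8, 73.9, 102 and 105 CPM in con and at 88.7, 95.8, 94.4 and 105 CPM in R2b. The R2b values lay within the con range, apart from a near-tie at its top. The log2 fold change was 0.13 (SE 0.13, edgeR adjusted p = 0.556), and with the litter as a block and litter 3 left out it was 0.23 with an adjusted p of 0.0361, where 30.6% of genes were called.

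Irx2 was at 39.3, 39.8, 44.3 and 69.7 CPM in con and at 50, 50.8, 58.3 and 70.2 CPM in R2b. R2b was higher in all 4 litters, but con litter 4 was as high as the highest R2b library, so the groups overlapped. The log2 fold change was 0.25 (SE 0.19, edgeR adjusted p = 0.416). With the litter as a block it was 0.27 and called, at an edgeR adjusted p of 0.00763, in a fit where 40.6% of all genes were called. Without litter 4 it was 0.37 (adjusted p = 0.0284), and without the con library of litter 4 alone it was 0.48 (adjusted p = 0.0378), both with no block.

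Litter 4 of this exposure also had the most mesenchyme reads: its 12 markers summed to 1261 CPM in con and 1180.2 CPM in R2b, against 48.1 to 414 CPM in the other libraries. Its blood markers summed to 1632 CPM in con and 637 CPM in R2b. The part of these markers in the Irx2 values was not tested. In con litter 4, Irx3 (129 CPM) and Irx6 (2.58 CPM) were the lowest of the con libraries, while Irx5 (46.8 CPM) was above litter 3 (42.1 CPM). In R2b litter 4, Irx5 (96.2 CPM) was above litters 1 and 3 (94.3 and 89.6 CPM). The part of the markers in these values was not tested either.

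**Figure D2:**
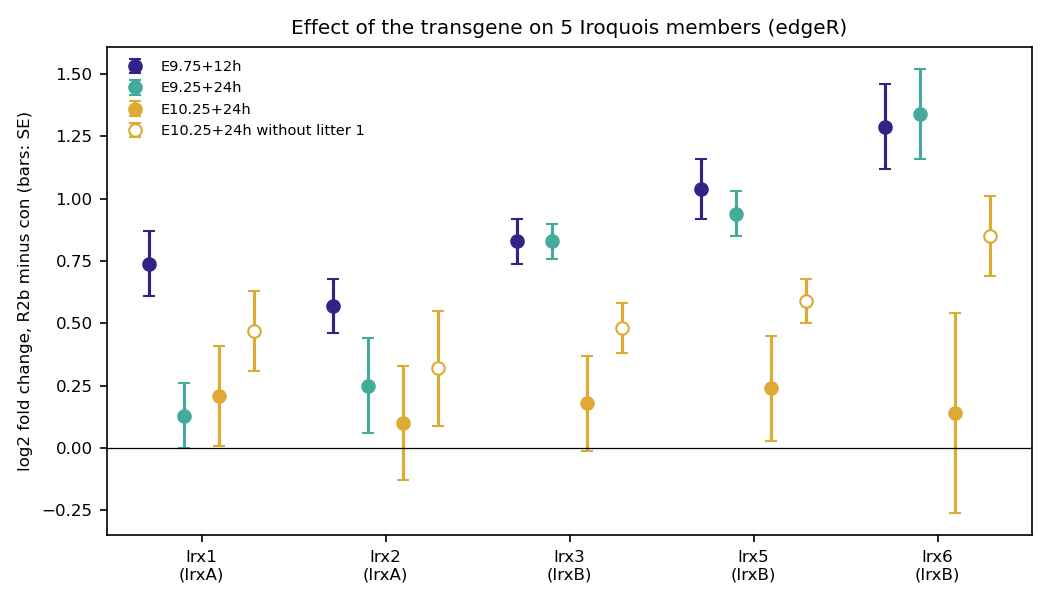
Log2 fold change (R2b minus con, edgeR) of 5 Iroquois genes in each exposure, with bars for 1 SE, and open points for E10.25+24h without litter 1. The IrxB genes sit at 0.83 to 1.34 in both exposures that ended at E10.25, while Irx1 goes from 0.74 in the 12 h exposure to 0.13 in the 24 h one.

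The effects in these exposures were then compared with each other. The exposures differ in length, in the stage at the start (E9.25 or E9.75) and in the library number prefix, and these cannot be told apart. In edgeR's test of the difference of effects (24 h minus 12 h) no member was called, where 0.0% of 15688 genes were called. At an unadjusted p under 0.05 there was 1 member of 6 and 12.2% of all genes, and DESeq2 called no member. That member was Irx1, whose effect was lower by 0.59 on the log2 scale in the longer exposure (SE 0.27, edgeR adjusted p = 0.392). The difference was -0.31 (SE 0.32) for Irx2, 0.02 (SE 0.21) for Irx3, -0.08 (SE 0.25) for Irx5 and 0.07 (SE 0.46) for Irx6. The call of Irx1 and Irx2 in the shorter exposure alone is therefore not shown to be a difference between exposures.

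Summed per cluster and per kb, the IrxB genes held a larger share of the family in R2b than in con at E9.25+24h, in all 4 litters. The IrxB genes made up 66.4%, 63.9%, 54.9% and 50.3% of the family in con (litters 1 to 4) and 71.4%, 71.5%, 69.9% and 66.4% in R2b. Con varied more, with 58.9% ± 7.55 (SD, n = 4), than R2b, with 69.8% ± 2.38. Within litters the log2 ratio of IrxB to IrxA was higher in R2b by 0.33, 0.51, 0.93 and 0.96. In the 12 h exposure the share was 69.4%, 66.3% and 66.1% in con and 69.8%, 70.7% and 70% in R2b, and the log2 ratio was higher in R2b by 0.03, 0.29 and 0.25. Under the labels of E10.25+24h the log2 ratio differed by -0.08, 0.59, 0.17 and -0.32 (R2b minus con, litters 1 to 4), so litters 1 and 4 went the other way. These shares and ratios are sums over the members and were not tested.

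**Figure D3:**
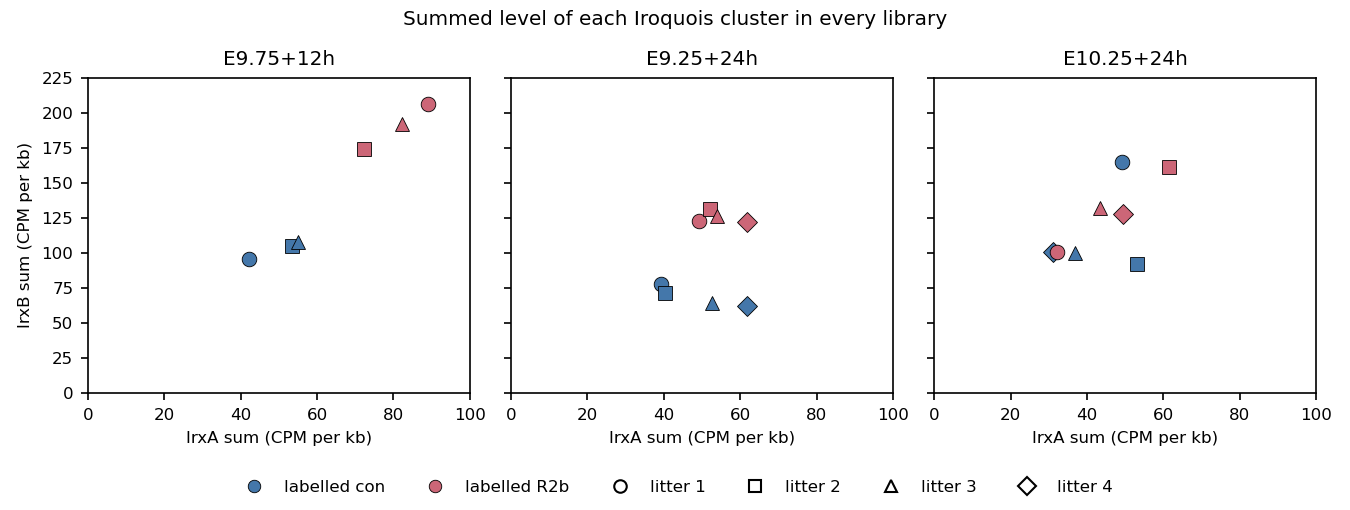
Summed level of the IrxB genes against that of the IrxA genes (both in CPM per kb) in each library, by exposure, coloured by labelled genotype with symbols for litters. At E9.75+12h both sums are higher in R2b, at E9.25+24h the groups separate on the IrxB axis only (62.5 to 77.6 in con, 122 to 131 in R2b), and at E10.25+24h they overlap on both.

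In the later exposure, E10.25+24h, no Iroquois gene was called under the labels as given. Neither was any of the 15203 genes tested (0.0%) by edgeR, although 175 had an unadjusted p under 0.05, none of them a member, and DESeq2 called 0 genes. The R2b libraries lay above the con libraries without overlap for 0 of the 5 members tested and for 0.526% of all genes.

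Irx3 had 301, 179, 192 and 196 CPM under the con label (litters 1 to 4) and 193, 306, 247 and 235 CPM under the R2b label. The labelled con library of litter 1 was as high as the highest labelled R2b library, and the labelled R2b library of litter 1 was the lowest of its group. The log2 fold change was 0.18 (SE 0.19, edgeR adjusted p = 1) with all litters and 0.48 (SE 0.10, adjusted p = 0.118) without litter 1.

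Irx5 also had its highest labelled con value in litter 1, at 131, 75.0, 80.8 and 76.6 CPM in labelled con and 77.9, 132, 109 and 109 CPM in labelled R2b. Its log2 fold change was 0.24 (SE 0.21, edgeR adjusted p = 1) with all litters and 0.59 (SE 0.09, adjusted p = 0.0756) without litter 1. Irx6 was at 47.0, 10.9, 15.7 and 17.1 CPM in labelled con and at 21.1, 25.3, 27.1 and 26.4 CPM in labelled R2b. The labelled con library of litter 1 stood apart with the highest Irx6 of its exposure, while its Irx3 was close to that of labelled R2b litter 2. For Irx6 the log2 fold change was 0.14 (SE 0.40, adjusted p = 1) with all litters and 0.85 (SE 0.16, adjusted p = 0.103) without litter 1.

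Of the IrxA genes, Irx1 was at 86.3, 75.4, 64.2 and 54.6 CPM in labelled con and at 56.9, 109, 75.8 and 83.3 CPM in labelled R2b. Irx2 was at 53.2, 62.4, 40.7 and 33.5 CPM in labelled con and at 34.0, 64.9, 47.6 and 57.6 CPM in labelled R2b. Both were spread widely in each group, and litter 1 was again the litter with con above R2b. The log2 fold changes were 0.21 (SE 0.20) for Irx1 and 0.10 (SE 0.23) for Irx2 with all litters, and 0.47 (SE 0.16, edgeR adjusted p = 0.24) and 0.32 (SE 0.23, adjusted p = 0.54) without litter 1.

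With the litter as a block and litter 1 left out, 4 of the 5 members were called higher, in a fit where 4.04% of all genes were called. The edgeR adjusted p was 0.0349 for Irx1, 0.0481 for Irx3, 0.024 for Irx5 and 0.0248 for Irx6, and it was 0.173 for Irx2. With litters 1 and 3 both left out and the block kept, Irx1 (0.0133), Irx5 (0.0185) and Irx6 (0.0358) were called by adjusted p, and Irx3 was not (0.064), where 5.77% of all genes were called. With litters 1 and 3 left out and no block, 0 members were called, and the log2 fold changes were 0.57 for Irx1, 0.36 for Irx2, 0.54 for Irx3, 0.68 for Irx5 and 0.89 for Irx6.

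The values were also set against Ighg1 in place of the labels. The 4 libraries of this exposure with the most Ighg1 (703 to 1186 CPM) held the 4 highest values of Irx3, Irx5 and Irx6, and also of Irx1, where the gap was narrow (75.8 against 75.4 CPM). For Irx2 they did not, since labelled con litter 2 had 62.4 CPM. The others, with 0.758 to 206 CPM of Ighg1, had Irx3 at 179 to 196 CPM and Irx5 at 75.0 to 80.8 CPM. This is a description of 8 libraries, grouped by Ighg1 after its values were seen, and was not tested. How many of all genes separate in the same way was not counted, so it cannot be judged how common this is.

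**Figure D4:**
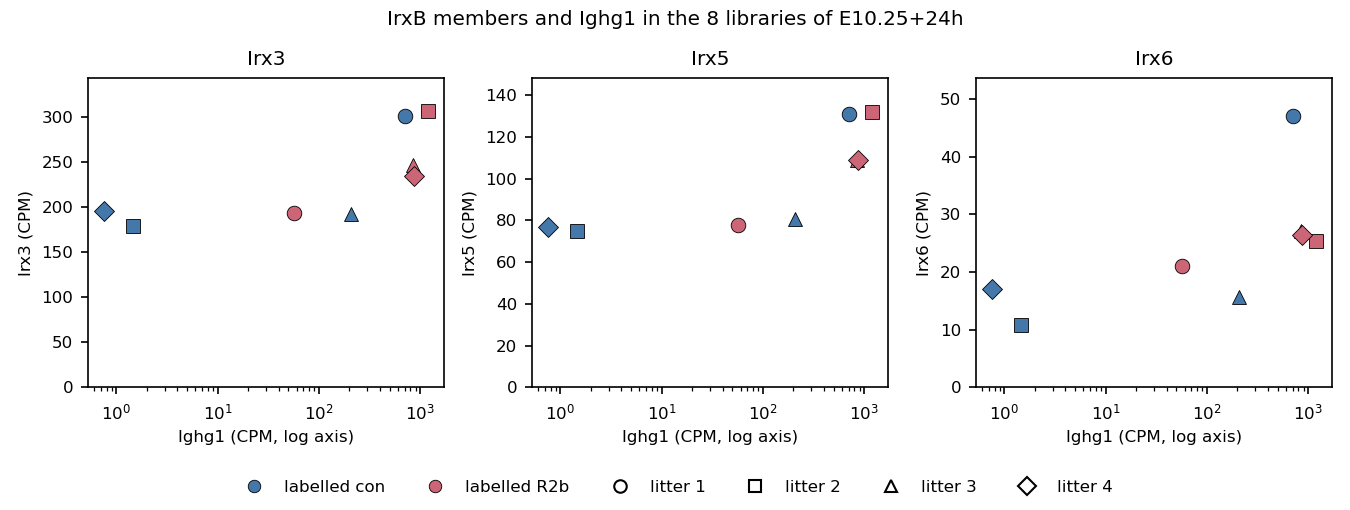
CPM of Irx3, Irx5 and Irx6 (linear axes) against CPM of Ighg1 (log axis) in the 8 libraries of E10.25+24h, coloured by labelled genotype with symbols for litters. The labelled con library of litter 1 sits with labelled R2b libraries on the right, and the labelled R2b library of litter 1 sits to their left at 193 CPM of Irx3.

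The later 24 h effect minus the earlier one was not called for any member by edgeR or DESeq2 (0.0% of 15688 genes by edgeR), and at an unadjusted p under 0.05 there were 4 of 6 members and 8.57% of genes. It was -0.66 (SE 0.19, adjusted p = 0.281) for Irx3, -0.71 (SE 0.23, adjusted p = 0.34) for Irx5 and -1.20 (SE 0.43, adjusted p = 0.40) for Irx6. Without litter 1 of E10.25+24h, whose libraries went against their labels, the differences were smaller: -0.36 for Irx3, -0.36 for Irx5 and -0.50 for Irx6, with edgeR adjusted p of 0.633, 0.908 and 1. Without litter 2 of E10.25+24h, Irx3 had a difference of -0.86 and an edgeR adjusted p of 0.0347. The other member was Irx4, with a difference of -4.58 (SE 1.75, adjusted p = 0.46) that was -0.17 (adjusted p = 0.981) without that same litter 2.

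Irx4, known for its part in the identity of heart ventricles, was nearly absent from the otocyst. It had 0 to 30 counts in 21 of the 22 libraries, and it passed the filter on low counts at E9.25+24h only. There its log2 fold change was 0.22 (SE 0.79, edgeR adjusted p = 0.88). In the labelled con library of litter 2 at E10.25+24h it had 272 counts, or 14.1 CPM, against 0 to 8 counts in the other libraries of that exposure. Labelled con litter 1 had 0 counts, which allows up to 0.134 CPM (3 counts, counting error only).

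The library with Irx4 also differed in markers of surface ectoderm, the tissue next to the otocyst. The 6 markers with a row summed to 242 CPM there, against 37.2 to 129 CPM in the other libraries of the exposure. Tfap2b was at 70.7 CPM, against 0 to 1.31 CPM elsewhere in the exposure. Trp63, the master regulator of stratified epithelium, was at 51.8 CPM, but also at 35.3 CPM in labelled con litter 3 and 28.1 CPM in labelled R2b litter 1, which had 6 and 3 counts of Irx4. Krt15 (30.9 CPM) and Wnt6 (58.8 CPM) were also highest in the library with Irx4. Grhl3 was at 10.6 CPM there and at 11.1 CPM in labelled con litter 3. Wnt3 was at 19.5 CPM there, inside the range of the other libraries (10.1 to 28.9 CPM). The part of these markers in the Irx4 value was not tested.

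Likeness across all 22 libraries was computed for the 5 members other than Irx4, and it was highest within clusters. With each gene centred on its mean in each exposure, log2 CPM of Irx3 and Irx5 correlated with a Pearson r of 0.987 (Spearman rho 0.95), the highest of the 12684 genes compared for either. Centred on all 6 labelled groups, r was 0.942, with the libraries of E10.25+24h that went against their labels left in. Irx1 and Irx2 had r = 0.866, or 0.831 centred on the 6 groups. Irx6 had r = 0.938 with Irx3 and 0.921 with Irx5, or 0.799 and 0.741 centred on the 6 groups. Among the genes compared with Irx6, Irx3 ranked 21 and Irx5 ranked 51.

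Between clusters the likeness was lower, from r = 0.367 for Irx2 with Irx6 to 0.684 for Irx1 with Irx5. Of the counterparts, Irx1 had r = 0.65 with Irx3 and Irx2 had r = 0.598 with Irx5. Centred on the 6 groups these fell to 0.503 and 0.364, and all pairs between clusters had r of -0.092 to 0.55. The libraries share litters, scaling and genotype, so these values are descriptions.

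Outside the family, the genes most like Irx3 were Pax2, an otic transcription factor gene (r = 0.965), and Slc6a17, a neurotransmitter transporter gene (0.965). All genes named here for likeness were chosen with the genotype difference left in. A shared rise in R2b therefore follows in part from the choice and is no separate result. Pax2 had log2 fold changes of 0.78 (SE 0.12, edgeR adjusted p = 0.00153) after 12 h and 0.64 (SE 0.06, adjusted p = 7.68e-04) after 24 h to the same stage. With the block and without litter 1, the first of these was 0.65 and not called (edgeR adjusted p = 0.0887). Most like Irx5 after Irx3 were Orai3, a calcium channel gene, and Trim47 (0.965 each). Most like Irx6 were Bmf, a pro-apoptotic BCL2-family gene (0.966), the adaptor gene Gab1 (0.966) and the cell-cycle inhibitor gene Cdkn1a (0.958). Cdkn1a rose by 0.89 in the first of these exposures (edgeR adjusted p = 8.53e-04) and by 0.94 in the second (adjusted p = 0.00201) on the log2 scale. The leading gene for Irx1 was the transcriptional cofactor gene Cited2 (0.868), and Amotl2 had r = 0.837. Irx2 was followed, after Irx1, by Copz2 (0.856) and Syt13 (0.837).

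Genes within 1 Mb of either cluster were counted in the exposures that ended at E10.25. Beside IrxB, 13 neighbours had a row, and 2 of 11 tested were called after 12 h and 2 of 12 after 24 h. Over all genes, 20.0% and 15.6% were called, so these counts are near the background. Both counts include Irx3os, which overlaps Irx3. Reads of these genes cannot be told apart, so whether Irx3os changed apart from Irx3 was not tested. The antisense RNA gene Irx3os ranged over 9.23 to 10.5 CPM in con and 19.9 to 23.7 CPM in R2b after 12 h, which gave a log2 fold change of 1.12 (SE 0.15, edgeR adjusted p = 8.86e-04). At E9.25+24h the means were 6.10 ± 2.19 CPM in con and 12.1 ± 1.78 CPM in R2b (SD, n = 4), a change of 0.98 (SE 0.25, adjusted p = 0.0314). The later call was lost in 8 of 23 alternatives, each with a litter or a library left out, where the adjusted p was 0.052 to 0.0975.

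Crnde, a noncoding gene that starts 1505 bases from the start of Irx5 on the opposite strand, rose by 0.59 at E9.25+24h (SE 0.13, edgeR adjusted p = 0.0195). Leaving out litter 1 or litter 2 ended that call, with changes of 0.63 and 0.62 and adjusted p of 0.0906 and 0.0926, in fits that called 322 and 460 genes in all. Ces1d, a carboxylesterase gene 524 kb from Irx6, rose by 1.13 at E9.75+12h (SE 0.13, adjusted p = 5.21e-04), from 17.5 ± 1.92 to 38.3 ± 2.12 CPM (SD, n = 3 each), and was not called at E9.25+24h, with 0.77 (SE 0.31, adjusted p = 0.123). Crnde was not called after 12 h, with 0.48 (SE 0.21, adjusted p = 0.124). The other IrxB neighbours tested, among them Fto and Rpgrip1l, were not called, with log2 fold changes of -0.32 to 0.71 after 12 h and -0.55 to 0.46 after 24 h to the same stage.

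Beside IrxA, 15 neighbours had a row, and 2 of 15 were called after 12 h and 0 of 15 after 24 h, below the shares over all genes. Gm20554, a noncoding gene that starts 256 bases from Irx2 on the opposite strand, rose at E9.75+12h as Irx2 did, by 0.58 (SE 0.11, edgeR adjusted p = 0.00527). Without litter 1 its change was 0.57 and the adjusted p 0.111, and at E9.25+24h it was 0.29 and not called (adjusted p = 0.0659). Trip13, a meiotic and mitotic checkpoint ATPase gene 677 kb from Irx4, fell by 0.86 on the log2 scale at E9.75+12h (SE 0.12, adjusted p = 0.00116). With the block and without litter 1 there, its change was -0.77 and not called (edgeR adjusted p = 0.0664). At E9.25+24h its change was -0.28 and not called (edgeR adjusted p = 0.112). The others were not called, with log2 fold changes of -0.32 to 0.60 in the 12 h exposure and -0.24 to 0.13 at E9.25+24h. Under the labels as given for E10.25+24h, 0 neighbours of either cluster were called. With the block and without litter 1, Irx3os there had a log2 fold change of 0.88 (edgeR adjusted p = 0.0209).

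**Figure D5:**
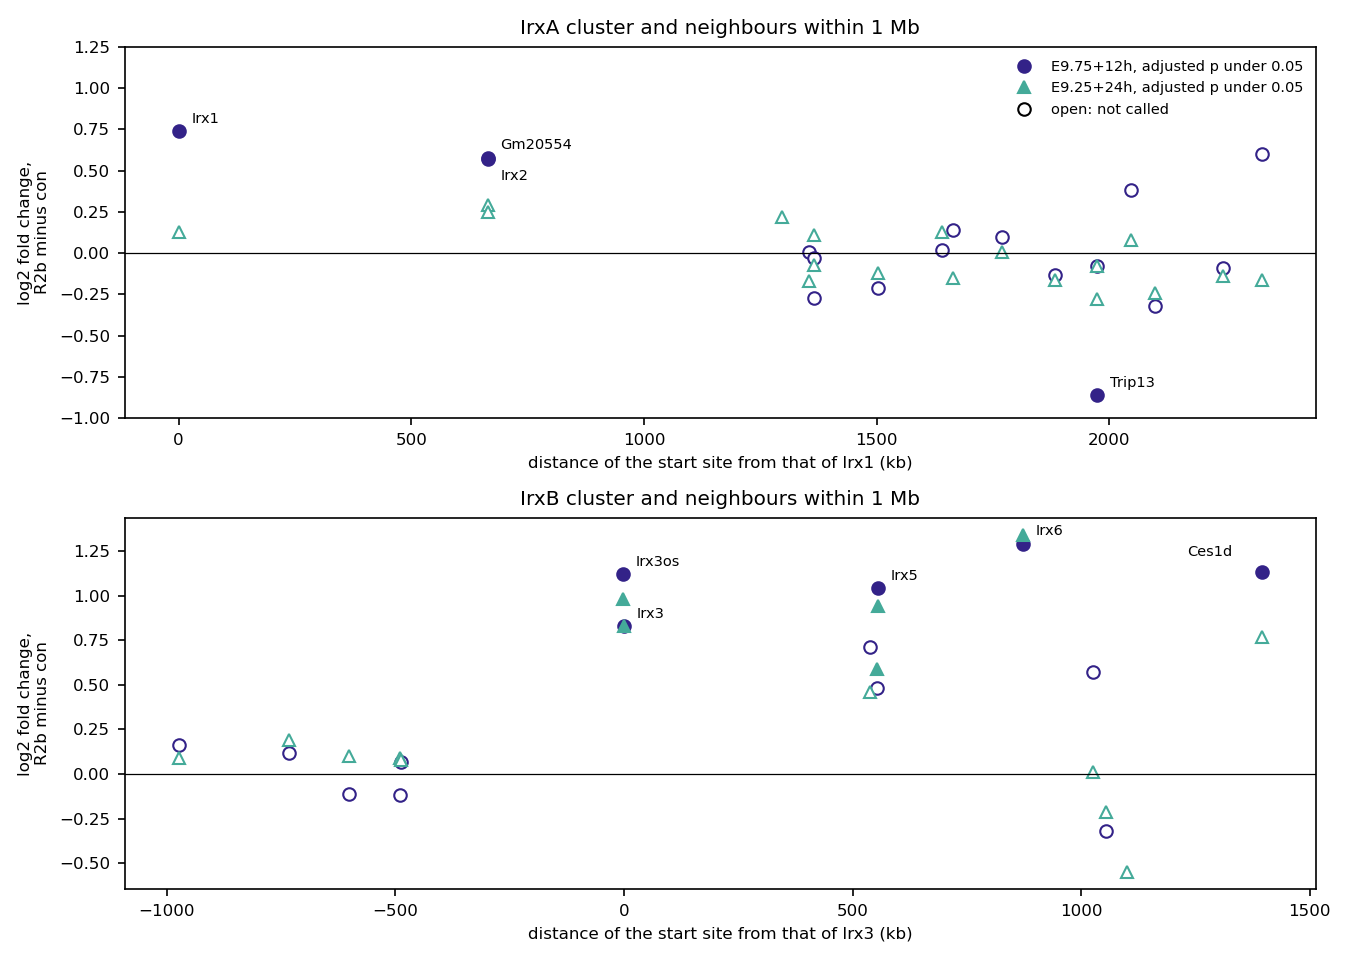
Log2 fold change (R2b minus con) of each Iroquois gene and each neighbour tested within 1 Mb, by distance of its start site from that of Irx1 (upper panel) or Irx3 (lower panel), for E9.75+12h (circles) and E9.25+24h (triangles), filled where called. In the lower panel the filled points are Irx3, Irx5 and Irx6 themselves, Irx3os, Crnde at E9.25+24h and Ces1d at E9.75+12h. The other neighbours are open, and most of them lie nearer 0.

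Other genes of the TALE class were also counted. Of 12 on the list (the Meis, Pbx, Pknox and Tgif genes and Mkx), 0 were higher and 1 lower at E9.75+12h, with a median log2 fold change of 0.03, and 2 were higher and 1 lower at E9.25+24h, with a median of -0.03. Over all genes 20.0% and 15.6% were called, so the share of the list was below that of all genes at E9.75+12h and above it at E9.25+24h. Meis2, a cofactor gene, fell in both exposures, by 0.60 (SE 0.10, edgeR adjusted p = 0.00275) and by 0.51 (SE 0.11, adjusted p = 0.0159). Leaving out litter 1 ended both calls, with log2 fold changes of -0.57 and -0.45 and adjusted p of 0.0585 and 0.12. Those fits called 434 and 322 genes in all, against 2973 and 2335 with all litters. Tgif1 and Pbx3 rose by 0.25 and 0.16 at E9.25+24h (edgeR adjusted p = 0.0312 and 0.0361).

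The readout genes of FGF signalling fell in the same libraries: 12 of 14 were called lower at each of these exposures. Over all genes, 1455 of 14882 were called lower at E9.75+12h and 973 of 14979 at E9.25+24h. Dusp6, an ERK phosphatase gene, fell by 1.78 at E9.75+12h (SE 0.17, edgeR adjusted p = 3.47e-04). Spred3, an inhibitor of the pathway, fell by 2.25 at E9.25+24h (SE 0.14, adjusted p = 1.28e-04). At E9.25+24h 1 gene of the list rose, Flrt3, by 0.71 (adjusted p = 7.68e-04).

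Readouts of the pathways known to set Iroquois domains in other tissues were also counted, against the same 20.0% and 15.6% of all genes called in either direction. Called higher were 1518 of 14882 genes at E9.75+12h and 1362 of 14979 at E9.25+24h. Of 5 hedgehog readouts, 2 rose after 12 h and 3 after 24 h (E9.25+24h), led by Gli1, which rose by 0.76 and 0.63 (edgeR adjusted p = 9.31e-04 and 0.00653), and Ptch1, by 0.55 and 0.44. Of 7 Wnt readouts, 3 and 4 rose, led by Sp5, which rose by 0.88 and 1.07 (adjusted p = 0.00269 and 0.00157). Of 9 BMP readouts, 3 rose at each exposure, with Msx2 up by 0.83 and 0.77 (adjusted p = 8.91e-04 and 0.0128). Of 6 retinoic acid readouts, 3 rose at each exposure and 1 fell at E9.25+24h, Cyp26c1, named here after its values were seen. Rarb, a retinoic acid receptor gene, rose by 1.03 there (adjusted p = 0.00472).

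Of 8 genes linked to Iroquois factors in heart and other tissues, 7 had a row. After 12 h, 1 of 7 tested was called, and at E9.25+24h 1 of 6, near the shares over all genes. Kcnd2, a potassium channel gene repressed by Irx5 in heart muscle, was higher at E9.75+12h, with a log2 fold change of 1.02 (SE 0.26, edgeR adjusted p = 0.0179). Gja1, a connexin gene, was higher at E9.25+24h, by 1.01 (SE 0.12, adjusted p = 0.00204).

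Part of these list calls were lost in other fits. Of 44 calls of the first 3 genes of a list in both exposures that ended at E10.25, cell type markers included, 11 held in every alternative fit, and none changed sign in any. With the block alone, 15 of 22 such calls held at E9.75+12h and 22 of 22 at E9.25+24h. At E9.75+12h it ended all 3 retinoic acid calls, with edgeR adjusted p of 0.0771 for Dhrs3, 0.105 for Cyp26b1 and 0.059 for Stra6. It also ended the Wnt calls of Nkd1 (adjusted p = 0.058) and Notum (0.063) and the BMP call of Smad6 (0.0572). With the block and without litter 1 there, where 267 genes were called in all, the edgeR adjusted p was 0.0586 for Gli1, 0.193 for Ptch1, 0.114 for Sp5 and 0.126 for Kcnd2, with log2 fold changes of 0.74, 0.45, 0.69 and 1.24. At E9.25+24h it was 0.0882 for Msx2 and 0.0627 for Rarb without litter 1, 0.0514 for Gli1 without litter 2, 0.126 for Tgif1 without litter 3, and 0.199 for Pbx3 in the fit over all libraries. The log2 fold changes in those fits were 0.79 for Msx2, 1.02 for Rarb, 0.68 for Gli1, 0.21 for Tgif1 and 0.15 for Pbx3. The named calls of Dusp6, Spred3, Flrt3 and Gja1 held in every alternative, as did those of Msx2 at E9.75+12h and of Sp5 and Ptch1 at E9.25+24h.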

How the data were processed

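The members, gene lists, clusters and tests were chosen with earlier results of these data known. Per the labels' protocols, RNA from otocyst pools was selected with oligo(dT) and made into stranded libraries. Reads were aligned with Novoalign 2.08.03 to mm10, per the submitters' processing notes. The authors deposited raw counts per gene. The counting tool, annotation, read length and use of strand are not given in the sources used here. The lowest total of a gene in the table was 108 counts over the libraries used. Of 24 samples, 22 had a column. The other 2 belong to E9.75+12h, and 2 columns that name no sample were not used. Symbols and positions are from GENCODE M21 on GRCm38, which named 15522 genes and left 214 unnamed.

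Genes were filtered (filterByExpr) and scaled by TMM. The quasi-likelihood test of edgeR 4.0.16 (R 4.3.3) compared R2b with con in each exposure alone, with no block. Standard errors come from the F statistic. Differences of effects were contrasts of 6 group means over 22 libraries. Adjusted p-values are Benjamini-Hochberg over all genes tested, two-sided, called under 0.05. Log2 CPM used a prior count of 2, and exact permutation tests compared the group means of log2 CPM. The scripts were tested on simulated data. The text names the 6 members, neighbours tested within 1 Mb, up to 3 called genes of each list per exposure (smallest adjusted p first), and the 3 genes most correlated with each member above a mean log2 CPM of 1. The litters are the replicates, and con and R2b of an exposure come from the same litters.

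The titles pair the libraries by litter, and per the labels both pools came from 1 female. As a check, deviations from the group means correlated across the genes tested within litters at -0.116, -0.237 and -0.255 in the 12 h exposure, at 0.424, 0.495, 0.766 and 0.749 in E9.25+24h, and at -0.114, 0.387, 0.309 and 0.295 in E10.25+24h. Alternative fits used the litter as a block, DESeq2 1.42.0, every library in 1 model, robust dispersion, size factors by median of ratios, another filter (a mean CPM of 1) or none, and left out each litter or library. The fits that leave out litters 1 and 3 of E10.25+24h, or litter 1 with the con library of litter 3, were chosen after seeing the data. Intervals and floors from counts cover counting error only.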

Additional observations from a re-analysis of the deposited data

Results flagged for a closer look

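In a group of 4 libraries, a value was singled out where its gap to the nearest of the others exceeded Dixon's 95% critical value as a share of the group's range. Of 24 such groups of the Iroquois genes, 4 held such a value, and chance gives about 1 in 20 groups.

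Irx2 was at 69.7 CPM in the con library of litter 4 at E9.25+24h, far from the other con libraries of that exposure (39.3 to 44.3 CPM). The R2b library of the same litter had 70.2 CPM.

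Irx4 was at 14.1 CPM in the labelled con library of litter 2 at E10.25+24h, against at most 0.242 CPM in the other libraries labelled con. Irx3 was at 301 CPM and Irx5 at 131 CPM in the labelled con library of litter 1 at E10.25+24h. The other libraries labelled con there had 179 to 196 CPM of Irx3 and 75.0 to 80.8 CPM of Irx5. The library of litter 1 also had 703 CPM of Ighg1.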

How the results depend on the processing

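No call of an Iroquois gene reversed in any alternative. At E9.75+12h the number of members called was 5, 4 in 1 fit over all libraries, and 3 to 5 when a litter or library was left out with no replicate block. With the replicate block it was 5, and 2 to 5 with a litter left out. At E9.25+24h it was 3, and 3 to 4 with a litter or library left out and no block. With the replicate block it was 4, and 4 to 5 with a litter left out. At E10.25+24h it was 0, also with the replicate block. With the block and a litter left out it was 0 to 4, and 3 with litters 1 and 3 left out. The number of members whose effect differed between both 24 h exposures was 0, and 0 to 1 with a litter left out. For the other difference of effects it was 0 throughout. At E9.75+12h 2973 genes were called, 1775 with the block, 4560 in 1 fit over all libraries, and 267 to 4583 with litters or libraries left out. At E9.25+24h 2335 were called, 6086 with the block, and 322 to 6161 with litters or libraries left out. At E10.25+24h 0 were called, 614 with the block and without litter 1, and 5 with litters 1 and 3 left out (877 with the block as well). The cause of these changes was not tested. The pairing at E9.75+12h rests on the labels, since its within-litter correlations were negative. Depth limits Irx4 (0 to 30 counts in 21 libraries) and Irx6 (56 counts at the least).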
